A study of Mus musculus with 24 samples.

Results

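The tubulin isotypes described here are the α-tubulin genes *Tuba1a*, *Tuba1b* and *Tuba1c* and the β-tubulin genes *Tubb2a*, *Tubb2b*, *Tubb3*, *Tubb4a*, *Tubb4b*, *Tubb5* and *Tubb6*. They were chosen by gene symbol, with earlier results of these data known, and all 10 were found among the 54658 genes of the table. RNA was measured in 24 libraries from mouse embryos obtained by crossing *Cep135* (+/-) mice, in which homozygous embryos, labelled Cep135 (-/-) and called mutants here, were compared with Cep135 (+/+) controls. *Cep135* encodes a centriole protein, and the study generated its null allele with CRISPR in B6.CBA zygotes, as a small deletion in the second exon, and kept the mice on C57BL/6J. Dorsal telencephalons of 3 mutants (A, B, C) and 3 controls (D, E, F) were dissected at E11.5 (E, embryonic day), and those of 3 mutants (1, 2, 6) and 3 controls (3, 4, 5) at E14.5, without drug treatment. Cortical progenitors isolated from the same 6 E14.5 embryos were cultured into incipient neurospheres for 12 or 24 hours, so that each embryo of that age gave 3 libraries. All E14.5 embryos share 1 title prefix, the E11.5 embryos carry others, and age therefore cannot be told apart from litter or processing group. At E11.5 the titles of A and D share 1 prefix, and those of B, C, E and F another. The descriptions of B and C carry a prefix unlike that of their titles, and those of E and F do not. Mutant 6 was labelled E14.5 in its title and tissue fields and E11.5 in its description, and was kept with the E14.5 cortices.

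Microtubules are polymers of α-tubulin and β-tubulin dimers, and they form the mitotic spindle and the centriole wall in dividing progenitors and the tracks and struts of axons and dendrites in neurons. Vertebrates make each subunit from several genes whose products, the isotypes, differ mostly in the acidic tail at the end of the protein, where enzymes add or remove glutamate, tyrosine and other groups. *Tuba1a*, *Tubb2b* and *Tubb3* are known for their high use in newborn neurons and as genes of human cortical malformation, whereas *Tuba1b*, *Tubb5* and *Tubb4b* are used widely, in dividing cells as well. Cells also lower tubulin mRNA when free dimer accumulates, through recognition of the nascent protein on the ribosome.

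The coding ends of 6 β isotypes are shown because they hold the tails by which the genes are told apart, and because they show how alike some genes are that differed in level. Each line gives the last 21 codons, the stop codon included, read 5′ to 3′ along the coding strand from GENCODE vM21 transcripts (GRCm38), with in-frame glutamate codons in capitals, and each stretch lies in the last coding exon.
Tubb2a, chr13:34074468-34074530, minus strand: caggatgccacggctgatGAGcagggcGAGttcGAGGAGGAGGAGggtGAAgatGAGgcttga
Tubb2b, chr13:34127471-34127533, minus strand: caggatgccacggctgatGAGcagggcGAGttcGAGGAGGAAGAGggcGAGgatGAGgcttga
Tubb3, chr8:123421620-123421682, plus strand: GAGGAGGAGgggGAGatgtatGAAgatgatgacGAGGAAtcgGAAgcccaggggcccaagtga
Tubb4a, chr17:57080690-57080752, minus strand: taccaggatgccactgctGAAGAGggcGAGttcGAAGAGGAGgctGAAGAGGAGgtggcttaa
Tubb4b, chr2:25222308-25222370, minus strand: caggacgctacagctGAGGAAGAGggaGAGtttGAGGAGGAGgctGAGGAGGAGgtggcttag
Tubb5, chr17:35834982-35835044, minus strand: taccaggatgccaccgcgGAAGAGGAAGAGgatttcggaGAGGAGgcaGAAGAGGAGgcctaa
The coding ends of *Tubb2a* and *Tubb2b* differed at 3 of 63 bases. *Tubb3*, the isotype of postmitotic neurons, is the only one of these 6 that ends in a lysine codon, aag.

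Over the whole coding sequence *Tuba1a* and *Tuba1b* were 98.3% identical, *Tuba1b* and *Tuba1c* 97.9% and *Tubb2a* and *Tubb2b* 96.5%, against 80.2% to 85.7% for every other pair of β genes. The libraries were read from the 3′ end of mRNA, so the last 300 bases of each transcript decide which reads could be assigned. Of the 251 stretches of 50 bases in that window, 21.5% also occurred in transcripts of other genes for *Tuba1a*, 34.7% for *Tuba1b* and 43% for *Tuba1c*, namely the other α genes and predicted genes. The share was 16.3% for *Tubb2a*, 30.3% for *Tubb4b*, whose copies are pseudogenes and 1 other predicted gene, and 0% for *Tubb2b*, *Tubb3*, *Tubb4a*, *Tubb5* and *Tubb6*. Values of the α genes, *Tubb2a* and *Tubb4b* are therefore less certain than those of the other isotypes, since reads in such stretches may have been dropped or split. *Tuba1a* and *Tuba1b* overlap the same-strand gene *Gm49450* and *Tubb3* overlaps *Gm20388*, but none of the last 300 bases of these transcripts lay under their exons, and both genes were listed at 0 in every library.

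The values are normalized read counts, which are the reads on a gene divided by 1 size factor per library. The libraries held 4732781 to 11645213 reads on genes, and every isotype was read at least 38 times in every library, so that depth did not limit detection. The RNA gene *Gm42418* took 6.11% to 34.8% of reads. *Cep135* itself, whose small deletion need not remove the 3′ tag, was read in all mutants at 173 to 336 and in all controls at 171 to 375, and so did not check the genotype labels. All 10 markers of postmitotic neurons and all 10 of apical progenitors were present in every library, whereas summed markers of microglia (7 genes) were at 274 to 948 in the cortices and 6.31 to 62.5 in the cultures. In these bulk samples, fewer cells of a type and less RNA per cell cannot be told apart.

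The reads of the isotypes were spread unevenly. *Tubb2b* had the most, 26838 to 118370.0 normalized reads per library, followed by *Tubb5* (27979 to 61368) and *Tuba1a* (14120.4 to 43183), and *Tubb4a* and *Tubb6* had the fewest, 39.3 to 181 and 42.9 to 155. Because the libraries hold 3′ ends of molecules, counts were not divided by gene length, and the sharing of sequence between the α genes limits their comparison. Together the 10 isotypes took 2.12% ± 0.268 (SD, n = 6) of the reads outside *Gm42418* in E11.5 cortices, 3.13% ± 0.499 in E14.5 cortices, 2.39% ± 0.443 after 12 hours of culture and 2.72% ± 0.382 after 24 hours. The plot of every library shows the order of the conditions for each gene.

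**Figure D1:**
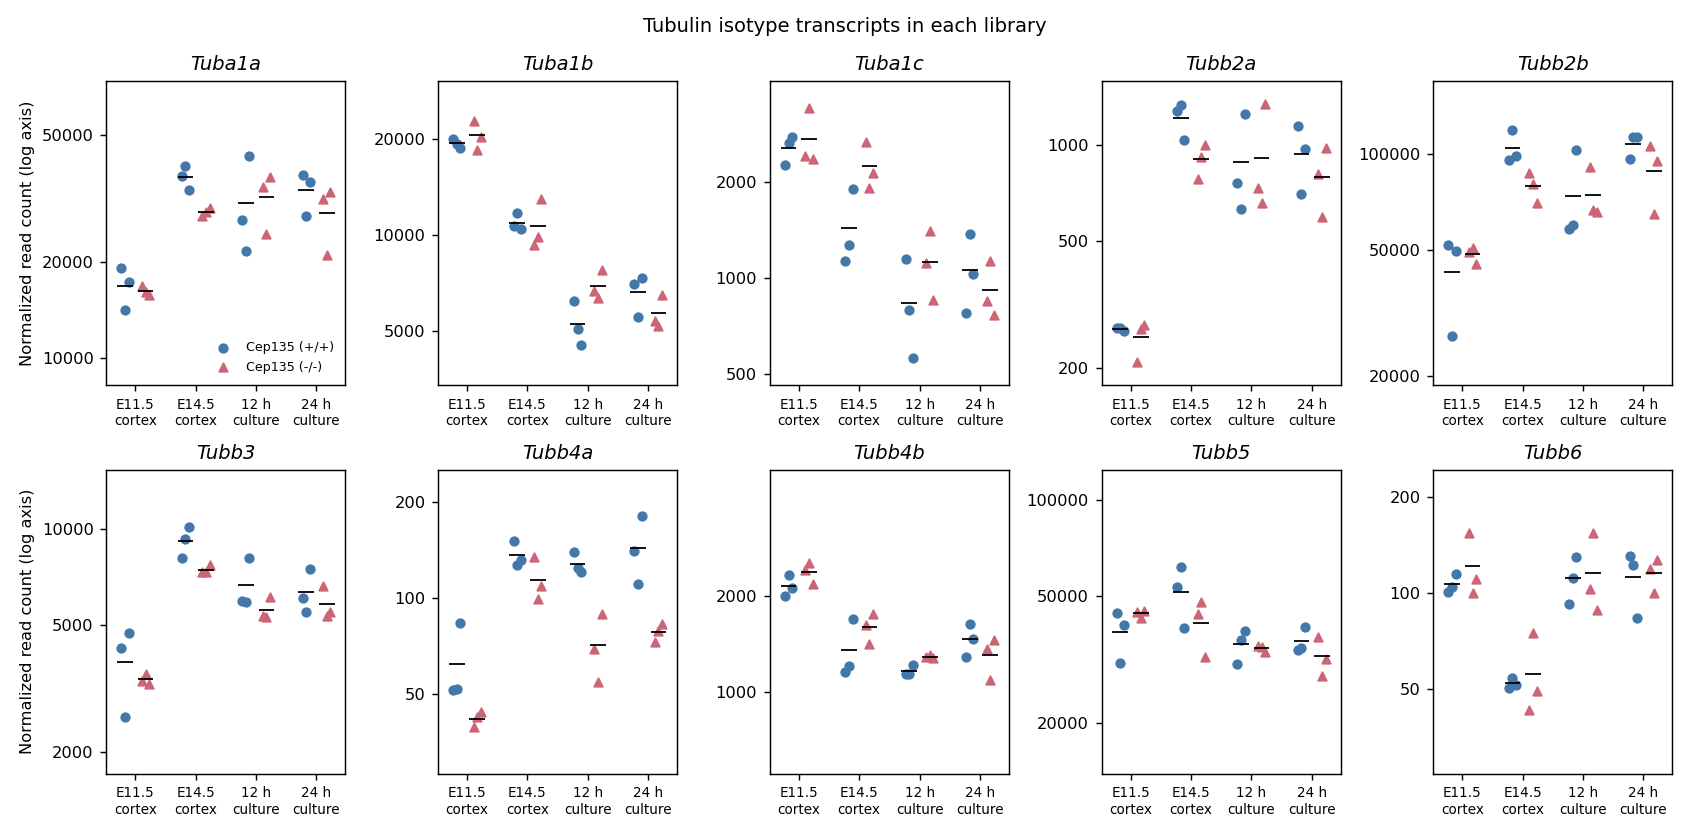
Normalized read count of each isotype (vertical log axis) in the 4 conditions (horizontal axis). Each point is 1 library, circles are Cep135 (+/+) and triangles Cep135 (-/-), and black bars are the means of 3; *Tubb2a* rises from at most 274 at E11.5 to at least 785 at E14.5, and *Tubb4a* triangles lie below all circles except at E14.5.

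The first question was how isotype use changes while the cortex passes from mostly dividing progenitors to neuron production. Between E11.5 and E14.5, 5 of the 10 isotypes rose and 4 fell in the 12 cortices (limma with genotype as a term, adjusted p under 0.05). Of the 13650 genes tested, 23.8% were called higher and 29.3% lower at E14.5, so a changed isotype was not unusual in itself. The share of all genes whose ages did not overlap was not counted. Separation of the ages is therefore described below without a background to set it against. The median over the isotypes was 0.56 on the log2 scale and that over all genes -0.08. The isotypes that rose were *Tuba1a*, *Tubb2a*, *Tubb2b*, *Tubb3* and *Tubb4a*, those that fell were *Tuba1b*, *Tuba1c*, *Tubb4b* and *Tubb6*, and *Tubb5* did not pass the threshold. Values below are the lowest, median and highest of 6 cortices per age, and log2 differences are E14.5 minus E11.5 of log2 of the normalized read count plus 1.

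Among the α genes, *Tuba1a*, the main α-tubulin of young neurons, lay at 14120.4, 16458 and 19247 at E11.5 and at 27893, 31589.7 and 39996 at E14.5. Every E14.5 cortex was above every E11.5 cortex, and the log2 difference was 0.98 (SE 0.101, adjusted p = 7.02e-07). *Tuba1b*, a close paralogue of it, went the other way, from 18507, 19706 and 22892 to 9313, 10563 and 12959.7. Its groups did not overlap either, with a log2 difference of -0.89 (SE 0.0966, adjusted p = 1.25e-06). *Tuba1c*, a widely used α gene with the fewest reads of the 3, fell from 2259, 2527 and 3418 to 1127, 1909 and 2667. Its ages overlapped, and the difference was -0.57 (SE 0.152, adjusted p = 0.00471). As a share of α reads, *Tuba1a* was 42.2% ± 2.75 (SD, n = 6) at E11.5 and 71.9% ± 3.68 at E14.5, while *Tuba1b* was 51% ± 2.83 and 23.9% ± 2.67. *Tuba1b* was thus the first α gene by reads at E11.5 in 6 of 6 cortices, and *Tuba1a* at E14.5 in 6 of 6.

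Among the β genes, *Tubb2a*, a neuronal β-tubulin, had the largest age difference of the isotypes. It lay at 209.6, 266 and 274 at E11.5 and at 785, 1019 and 1343 at E14.5, a log2 difference of 2.02 (SE 0.105, adjusted p = 3.77e-10), or 4.06-fold. The adjoining gene *Tubb2b* rose from 26838, 49279 and 51558 to 70121, 91195 and 118370.0, by 1.02 (SE 0.17, adjusted p = 9.93e-05). The lowest E11.5 value of *Tubb2b* came from control E, with the next cortex at 45218, and control E was also the lowest of the 6 for *Tubb3* and *Tubb5*. *Tubb3*, the class of β-tubulin used as a marker of neurons, rose from 2572, 3423 and 4711 to 7335, 7890.1 and 10169, a difference of 1.22 (SE 0.122, adjusted p = 4.76e-07). *Tubb4a*, a β-tubulin of the nervous system that is used most after birth, went from 39.3, 47.7 and 83.9 to 99.4, 129 and 152, a difference of 1.29 (SE 0.145, adjusted p = 1.86e-06). None of these 4 genes had overlapping ages.

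The β genes that fell were *Tubb4b* and *Tubb6*. *Tubb4b*, found in most cell types and in motile cilia, lay at 1995, 2246 and 2529.7 at E11.5 and at 1152, 1513 and 1748 at E14.5, a log2 difference of -0.63 (SE 0.0993, adjusted p = 6.02e-05). *Tubb6*, a β-tubulin used more outside the brain, lay at 100.4, 108 and 154 and then at 42.9, 51 and 75.1, a difference of -1.07 (SE 0.15, adjusted p = 1.82e-05). Both were lower in every E14.5 cortex than in every E11.5 cortex. *Tubb5*, the most widely used β-tubulin, overlapped between ages, at 30829.8, 43467 and 44809.6 and at 32082, 45753 and 61368, with a difference of 0.15 (SE 0.151, adjusted p = 0.427). Its share of β reads was 44.6% ± 2.75 (SD, n = 6) at E11.5 and 31% ± 3.15 at E14.5, where *Tubb2b* went from 48.5% ± 3.2 to 61.5% ± 2.34.

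Markers moved with these changes. The summed level of the 10 markers of postmitotic neurons was 7112 to 9983 in E11.5 cortices and 29144 to 39098 in E14.5 cortices, and that of the 8 mitotic markers 19176 to 22605 and 9576 to 14947. Sums of apical progenitor (15867 to 20102 and then 10511 to 12577) and erythroid markers (48734 to 78110.0 and then 38237 to 45332) were also lower at E14.5 without overlap, and those of intermediate progenitors (1659 to 2370 and then 2936 to 3411), choroid plexus (154 to 313 and then 737 to 7589) and ventral telencephalon (937 to 1567 and then 2096 to 2760) higher. The other 4 of the 11 marker lists overlapped between ages. Their part in the isotype differences was not tested.

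**Figure D2:**
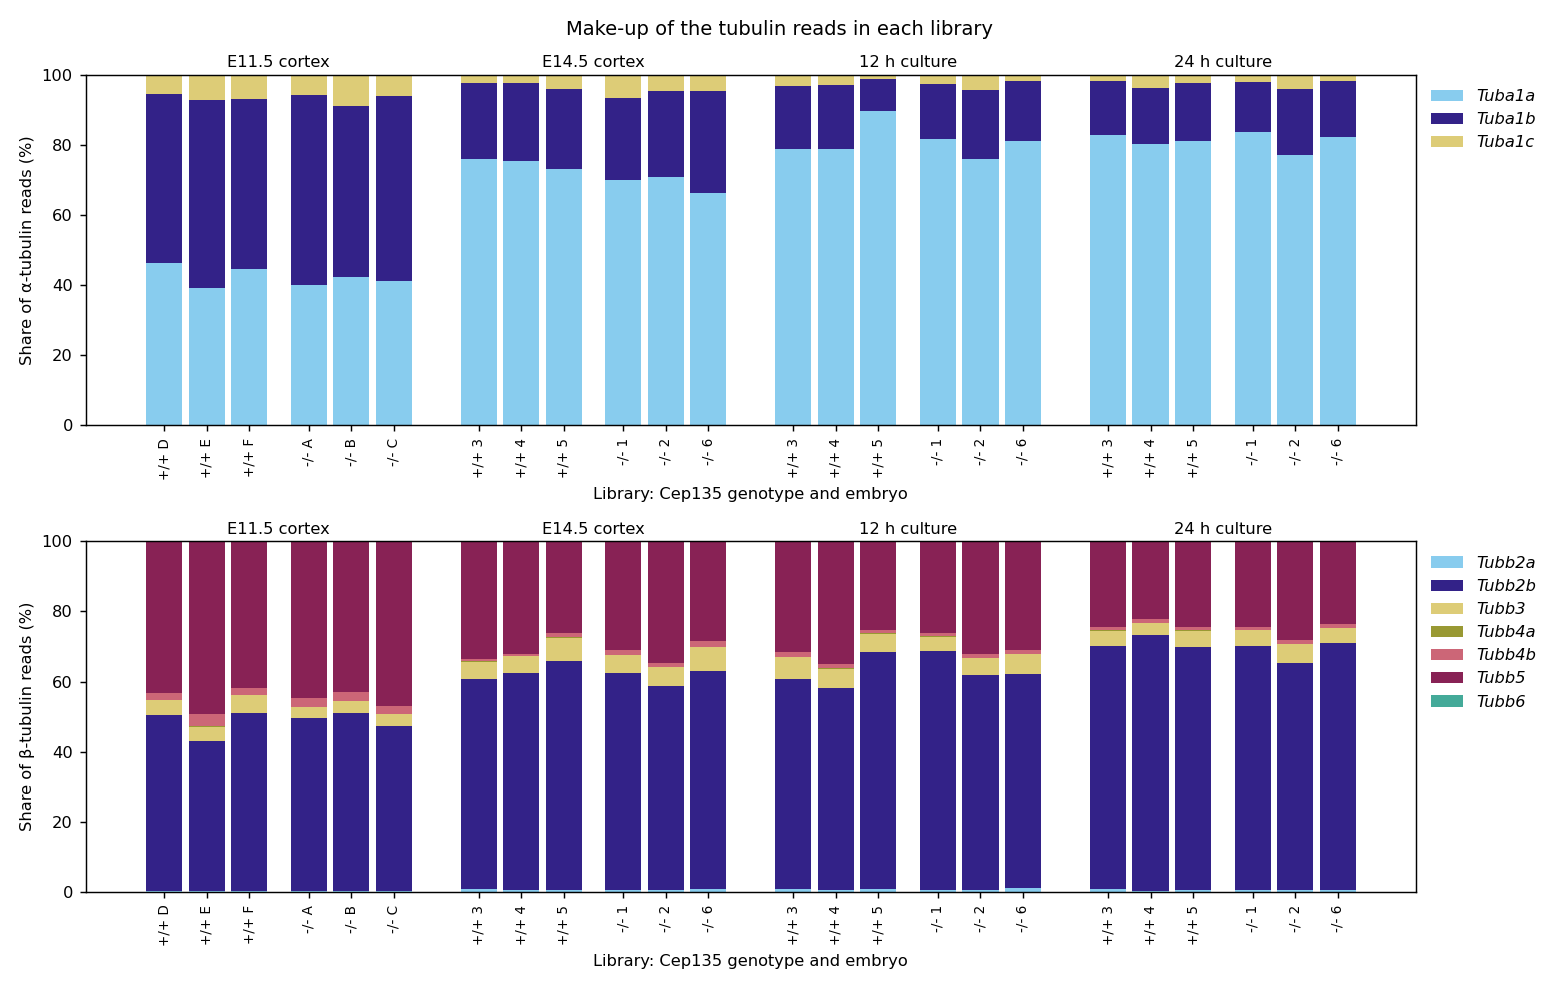
Share of the 3 α-tubulin genes (upper panel) and of the 7 β-tubulin genes (lower panel) in the normalized reads of each family, in percent from 0, with 1 bar per library labelled by *Cep135* genotype and embryo. *Tuba1a* takes 39.1% to 46.3% of α reads in E11.5 cortices and 66.2% to 76% in E14.5 cortices, and *Tubb2b* and *Tubb5* take most of the β reads throughout.

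The promoters of *Tuba1a* and *Tuba1b* are shown because these neighbouring genes, transcribed from the same strand of chromosome 15, moved in opposite directions with age. They are the 250 bases before and 50 after each RefSeq start (GRCm38.p6), read 5′ to 3′ along the gene, with matches to the CCAAT box, the letters TATAA and the GC box GGGCGG on either strand in capitals.
Tuba1a, chr15:98953452-98953751, minus strand: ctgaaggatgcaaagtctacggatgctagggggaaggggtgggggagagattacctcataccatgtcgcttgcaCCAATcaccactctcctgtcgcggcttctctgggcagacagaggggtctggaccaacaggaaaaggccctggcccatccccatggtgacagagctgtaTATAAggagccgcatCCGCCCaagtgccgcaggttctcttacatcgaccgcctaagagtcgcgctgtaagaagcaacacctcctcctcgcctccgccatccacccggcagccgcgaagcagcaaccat
Tuba1b, chr15:98934341-98934640, minus strand: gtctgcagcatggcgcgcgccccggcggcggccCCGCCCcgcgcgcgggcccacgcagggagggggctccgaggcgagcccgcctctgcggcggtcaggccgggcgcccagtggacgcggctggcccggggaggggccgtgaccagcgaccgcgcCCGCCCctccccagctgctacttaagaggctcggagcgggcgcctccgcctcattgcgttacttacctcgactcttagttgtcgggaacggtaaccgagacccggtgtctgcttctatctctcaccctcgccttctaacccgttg
*Tuba1a* held 1 CCAAT, 1 TATAA and 1 GGGCGG, whereas *Tuba1b* held no CCAAT or TATAA and 2 GGGCGG. Each held 1 match to CANNTG, which is not marked. The GENCODE transcripts of both genes begin further upstream than the RefSeq starts, inside these windows. Of 32851 RefSeq promoters of the same length, 37.4% held CCAAT, 24.9% TATAA, 35.7% GGGCGG and 72.3% CANNTG, so these matches are common. Promoters of 8 of the 10 isotypes were matched. CCAAT was found in those of *Tubb4b* (5 matches), *Tubb5* (2), *Tubb3* (1) and *Tuba1c* (1). TATAA was found in those of *Tubb3* (2), *Tubb2a* (1) and *Tubb4b* (1), and GGGCGG in those of *Tubb2a*, *Tubb3*, *Tubb4b* and *Tubb5* (2 each). Each of these motifs was thus found both in isotypes that rose with age and in isotypes that fell. The promoter of *Tubb4a*, which rose, held none of them.

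Placing E14.5 progenitors in culture for 12 hours asked how the isotypes differ between tissue and isolated cells of the same embryos. *Tubb6* rose and *Tuba1b*, *Tuba1c*, *Tubb3* and *Tubb5* fell in the cultures, and the other 5 did not pass the threshold. Of 13601 genes tested, 14.1% were called higher and 16.1% lower. The share of all genes whose groups did not overlap was not counted here either. The median over the isotypes was -0.36 and that over all genes -0.06.

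*Tubb6* had 42.9, 51 and 75.1 normalized reads in E14.5 cortices and 88.7, 107 and 155 (lowest, median and highest of 6) in the 12-hour cultures. It was higher in all 6 embryos, the groups did not overlap, and the log2 difference was 1.05 (SE 0.199, adjusted p = 0.000943). It was the only isotype of the 10 to fall between E11.5 and E14.5 and then rise in culture, where its median of 107 was near the 108 of the E11.5 cortices.

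*Tuba1b* was at 4505, 6268 and 7796 after 12 hours, below every E14.5 cortex, a log2 difference of -0.84 (SE 0.122, adjusted p = 9.67e-05) that was negative in 6 of 6 embryos. *Tuba1c* was at 558, 981 and 1398, with a difference of -0.91 (SE 0.177, adjusted p = 0.00119) and a lower value in 5 of 6 embryos. With *Tuba1a* at 21622, 30774 and 43183 and not past the threshold (-0.10, SE 0.164, adjusted p = 0.687), the share of *Tuba1a* in α reads was 80.9% ± 4.66 (SD, n = 6).

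*Tubb3* was at 5289.6, 5916 and 8111, a difference of -0.45 (SE 0.0996, adjusted p = 0.00323), and fell in all 6 embryos. *Tubb5* was at 30559, 34632 and 38698, a difference of -0.39 (SE 0.139, adjusted p = 0.0447). This last call was not stable: with the embryo as a replicate block its adjusted p was 0.0558, without a filter on low values it was 0.0821, and it was lost without any one of 9 of the 12 libraries. *Tubb4a* and *Tubb4b* had lower values in 6 of 6 embryos without passing the threshold, with differences of -0.39 (SE 0.177, adjusted p = 0.105) and -0.25 (SE 0.102, adjusted p = 0.0759). *Tubb2a* and *Tubb2b* had lower values in 4 of 6 embryos, with adjusted p = 0.267 and 0.164.

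Summed markers of mitotic cells were 6651 to 10385 in the 12-hour cultures, against 9576 to 14947 in the E14.5 cortices, and those of microglia 6.31 to 42.5 against 406 to 948. Markers of endothelium were at 31.1 to 110.2 against 968 to 1105, those of meningeal fibroblasts at 118 to 256 against 1542 to 2594 and those of intermediate progenitors at 1717 to 2459 against 2936 to 3411. Erythroid markers went the other way, at 69413 to 153116 against 38237 to 45332, while the mitotic sums overlapped, as did those of postmitotic neurons at 27210 to 42748 against 29144 to 39098. *Gm42418* took 10.7% to 34.8% of reads in the 12-hour cultures and 9.78% to 15% in the cortices. The part of these differences in the isotype changes was not tested.

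Between 12 and 24 hours of culture, 0 of the 10 isotypes passed the threshold (limma, with 1 at an unadjusted p under 0.05, and 0 with edgeR and DESeq2). Of 13359 genes tested, 0.15% were called higher and 0.142% lower, and 9.64% had an unadjusted p under 0.05, so that 1 of 10 was near the share over all genes. The 1 isotype was *Tubb2b*, at 58003, 66147 and 103067 after 12 hours and at 64572, 101220.0 and 113222 after 24 hours. It was higher in 5 of 6 embryos, with a log2 difference of 0.42 (SE 0.154, adjusted p = 0.353), and its share of β reads was 62.6% ± 4.34 (SD, n = 6) and then 69.4% ± 2.6. For *Tuba1a*, *Tuba1b*, *Tuba1c*, *Tubb2a*, *Tubb3*, *Tubb5* and *Tubb6* the difference lay between -0.03 and 0.04, with SE of 0.0893 to 0.194. It was 0.15 (SE 0.18, adjusted p = 0.847) for *Tubb4a*, higher in 4 of 6 embryos, and 0.16 (SE 0.0978, adjusted p = 0.62) for *Tubb4b*, higher in 5 of 6.

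**Figure D3:**
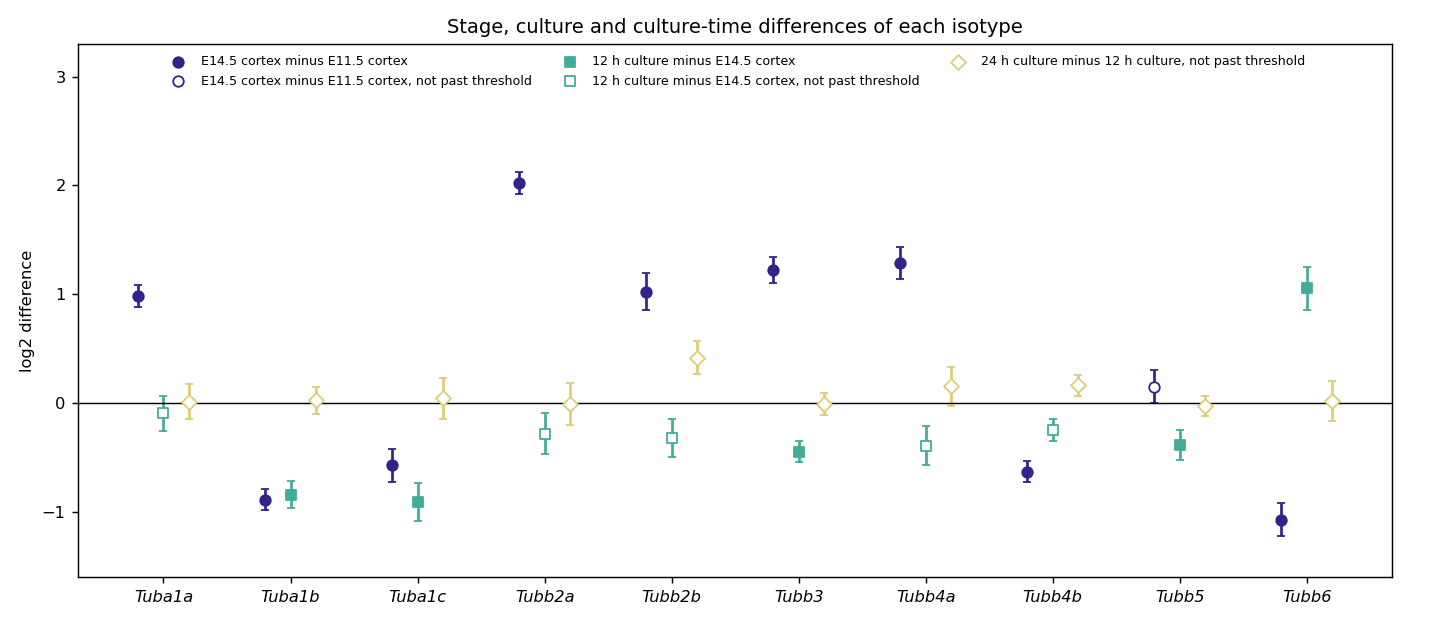
log2 difference of each isotype (vertical axis, of normalized read count plus 1) between ages, between 12-hour culture and E14.5 cortex and between culture times, with bars of 1 SE from limma. Filled symbols passed an adjusted p of 0.05 and open ones did not; *Tubb6* is the isotype with a filled negative circle and a filled positive square, and no diamond is filled.

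Across the 4 conditions the order of the mean levels can be read from ranges over 6 libraries each. *Tuba1a*, *Tubb2a*, *Tubb2b* and *Tubb3* were lowest at E11.5, apart from the next condition, and the ranges of their other 3 conditions overlapped from neighbour to neighbour. *Tuba1b* was highest at E11.5, then in E14.5 cortex, each apart from the next, while its 2 culture times overlapped. *Tubb4b* was highest at E11.5 and apart, *Tubb6* was lowest at E14.5 and apart, and for *Tuba1c*, *Tubb4a* and *Tubb5* all neighbours in the order overlapped.

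The main question of the design was whether loss of *Cep135* changes isotype levels. In limma 0 of the 10 isotypes passed the threshold in E11.5 cortices, 0 in E14.5 cortices, 0 in 12-hour cultures, 0 in 24-hour cultures and 0 when the 12 cortices were fitted together with a term for age, with 1, 4, 2, 1 and 3 at an unadjusted p under 0.05. The edgeR test and DESeq2, run on whole reads, likewise called 0 in each. Of all genes, 0.0149% of 13406 were called at E11.5, 0.0736% of 13583 at E14.5, 0% of 13389 at 12 hours, 0.271% of 13300 at 24 hours and 0.139% of 13650 in the 12 cortices. The shares of all genes at an unadjusted p under 0.05 were 7.39%, 9.1%, 4.85%, 10.6% and 8.71% in the same order, so that the counts of 1 at E11.5 and at 24 hours were near the share over all genes. The comparisons within a single condition had 3 embryos against 3, in which an exact permutation test of a single gene cannot go below p = 0.1. The values of single isotypes are given below as measured, and none of the differences passed the threshold.

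**Figure D4:**
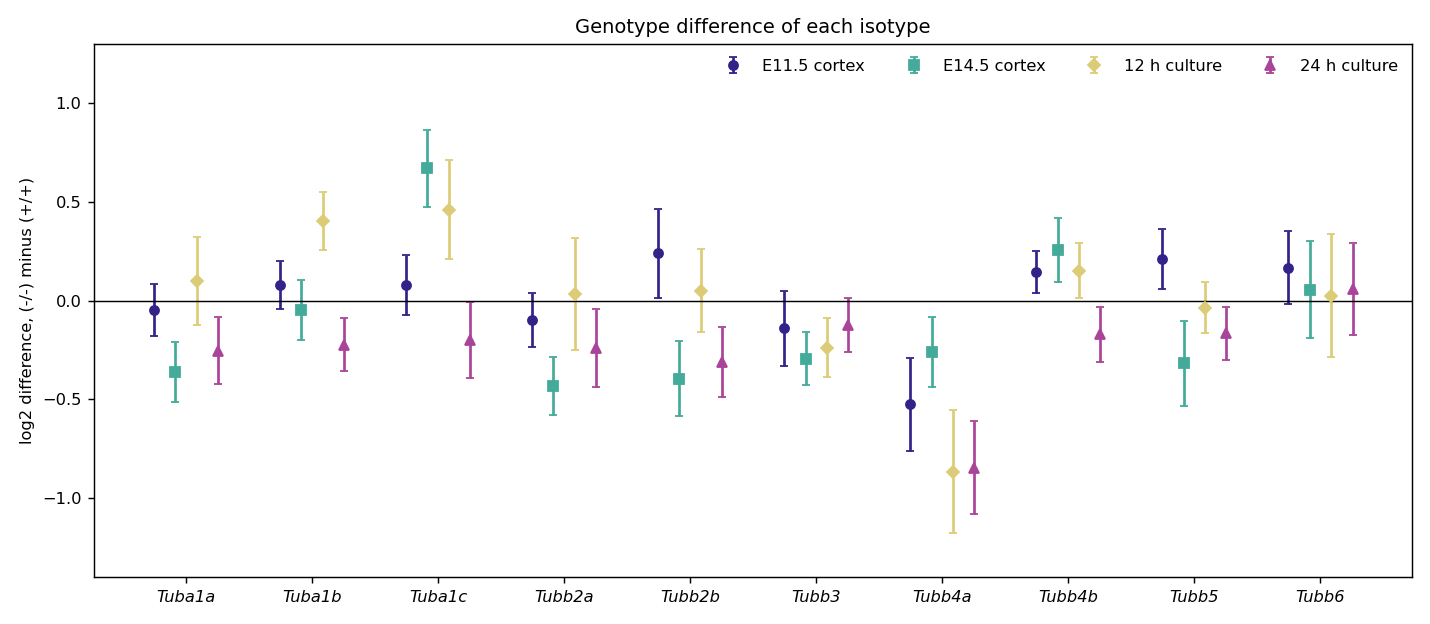
log2 difference, Cep135 (-/-) minus Cep135 (+/+), of each isotype (vertical axis, of normalized read count plus 1) in the 4 conditions, with bars of 1 SE from limma and 3 embryos a group. *Tubb4a* lies below 0 in all 4 conditions, between -0.87 and -0.26, and none of the differences passed an adjusted p of 0.05.

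*Tubb4a* was the isotype whose mean was lower in mutants by the most at E11.5 and in both cultures. At E11.5 controls D, E and F had 51.4, 51.8 and 83.9 normalized reads and mutants A, B and C 39.3, 42.4 and 44. At 12 hours controls 3, 4 and 5 had 140.0, 124 and 121 and mutants 1, 2 and 6 had 69.2, 54.7 and 89.6, and at 24 hours the values were 141, 111 and 181 against 73.1, 78.9 and 82.9. In these 3 conditions every mutant was below every control. At E14.5 the groups overlapped, at 152, 127 and 132 in controls and 134, 99.4 and 109.6 in mutants. The log2 differences were -0.53 (SE 0.237, adjusted p = 0.67) at E11.5, -0.26 (SE 0.178, adjusted p = 0.662) at E14.5, -0.87 (SE 0.312, adjusted p = 0.913) at 12 hours and -0.85 (SE 0.236, adjusted p = 0.164) at 24 hours. The values at E14.5 and in culture come from the same 6 embryos and are not independent of each other. Among all genes, groups did not overlap for 13.3% at E11.5, 11% at 12 hours and 16.2% at 24 hours.

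The means of neuron markers moved the same way. In mutants 10 of the 10 had a lower mean than in controls in the E11.5 cortices and in the 24-hour cultures, and 9 of the 10 in the other two conditions. Their sums overlapped at E11.5 (7112 to 7836 in mutants and 7753 to 9983 in controls) and at 12 hours (27210 to 35472 and 32882 to 42748). Of the 11 marker lists, 5 had sums that did not overlap at E11.5, with apical progenitors (15867 to 17456 in mutants and 17593 to 20102 in controls) and ventral telencephalon lower in mutants, and endothelium, choroid plexus and liver higher. At 12 hours 5 lists did not overlap, with microglia lower in mutants and intermediate progenitors, endothelium, choroid plexus and liver higher. The choroid plexus and liver lists share *Ttr*, and without it both overlapped at 12 hours. The other choroid plexus markers summed to 111 to 275 in mutants and 20.4 to 132.7 in controls. The other liver markers summed to 213 to 921 and 23.6 to 1401. Sums were low for microglia (6.31 to 15.6 and 18.8 to 42.5) and endothelium (81 to 110.2 and 31.1 to 65.8). Among endothelial genes *Kdr* was higher in every mutant, while *Pecam1* and *Esam* overlapped. The part of these measures in the values of *Tubb4a* was not tested.

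At 24 hours other measures differed between the same groups. Mutant libraries were deeper, with 7903426 to 11645213 reads against 4732781 to 5709443, and *Gm42418* took 20.5% to 23% of reads against 6.26% to 13.9%. Summed neuron markers were 28049 to 33166 in mutants and 36128 to 41837 in controls, those of apical progenitors 12724 to 13967 and 9936 to 11249, and those of mitotic cells 6185 to 6995 and 4716 to 5944. *Ttr*, a transport protein gene of both choroid plexus and liver, was at 4826 to 16344 in mutants and 764 to 3509 in controls. The other 4 choroid plexus markers summed to 129.7 to 441 and 25.9 to 69.1, with *Kl* at 0 in all mutants, and the other 9 liver markers to 117.5 to 387 and 11.3 to 27. Intermediate progenitor (1687 to 1997 and 1413 to 1668) and meningeal markers (232 to 290 and 147 to 184) were also higher in mutants without overlap. These differences and genotype cannot be told apart in the 24-hour cultures, and their part in the value of *Tubb4a* was not tested.

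At E14.5, 5 of the 10 isotypes had groups that did not overlap, 4 lower and 1 higher in mutants, where 13.7% of all genes had such groups. *Tuba1a* was at 37268, 39996 and 33598 in controls 3, 4 and 5 and at 27893, 28649 and 29581 in mutants 1, 2 and 6, *Tubb2a* at 1285, 1343 and 1037 against 785, 923 and 1002, and *Tubb2b* at 95555, 118370.0 and 98366 against 86836, 80232 and 70121. *Tubb3* was at 8097, 9272 and 10169 against 7339, 7335 and 7683. For these 4 genes every mutant was below every control. The log2 differences were -0.36 (SE 0.151, adjusted p = 0.518), -0.43 (SE 0.146, adjusted p = 0.471), -0.40 (SE 0.19, adjusted p = 0.558) and -0.29 (SE 0.133, adjusted p = 0.547) in that order. These genes share the same 6 embryos. The 10 isotypes together summed to 157461 to 180321 normalized reads in mutants and 197046 to 244741 in controls.

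*Tuba1c* differed the other way at E14.5, at 1127, 1262 and 1899 in controls and 2667, 1919 and 2126 in mutants. All mutants were above all controls, with control 5 close to mutant 2, and the log2 difference was 0.67 (SE 0.195, adjusted p = 0.408). Without control 5 it was 0.89, and its adjusted p of 0.0336 then passed the threshold, the only setting tried in which an isotype did so for genotype. In the 12 cortices together the difference was 0.37 (SE 0.152, adjusted p = 0.491).

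Summed markers of postmitotic neurons also differed at E14.5, at 29144 to 30068 in mutants and 35477 to 39098 in controls, with the mean of 9 of the 10 genes lower in mutants. The mitotic markers summed to 12488 to 14947 in mutants and 9576 to 11600.2 in controls, and those of microglia to 756 to 948 and 406 to 472. Their part in the isotype differences was not tested.

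In the 12-hour cultures *Tuba1b* had 6209, 5079.7 and 4505 normalized reads in controls and 6665, 6327 and 7796 in mutants. The mutants were all higher, with a log2 difference of 0.40 (SE 0.147, adjusted p = 0.913). *Tuba1c* was at 1147, 790.3 and 558 in controls and 1111, 1398 and 851 in mutants, which overlapped, with a difference of 0.46 (SE 0.25, adjusted p = 0.913). *Tubb4b* was at 1134, 1132 and 1213 in controls and 1287, 1305 and 1271 in mutants, a difference of 0.15 (SE 0.14, adjusted p = 0.916). Every mutant was above every control. With *Tubb4a*, 3 of the 10 isotypes had groups that did not overlap at 12 hours, 2 higher and 1 lower in mutants, beside 11% of all genes. At 24 hours *Tuba1b* overlapped, at 7035, 5546 and 7349 against 5386, 5175 and 6469.8. From 12 to 24 hours it was lower in each mutant embryo, by 0.27 to 0.31 on the log2 scale, and higher in each control embryo, by 0.13 to 0.71.

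The interaction of genotype with culture time for *Tuba1b* was -0.63 (SE 0.206, unadjusted p = 0.00746, adjusted p = 1 in limma), and so did not pass the threshold. Interactions of genotype with age, with culture and with culture time were tested for every gene, and limma called 0% of 13650, 0% of 13601 and 0% of 13359 genes. Among the 10 isotypes, 1, 0 and 1 had an unadjusted p under 0.05, against 7.84%, 5.32% and 2.38% of all genes, the first being *Tuba1c* with age at 0.59 (SE 0.272, adjusted p = 0.62). The interactions of the 10 isotypes ran from -0.64 to 0.59 with age, from -0.61 to 0.47 with culture and from -0.66 to 0.11 with culture time. No difference in genotype effect between conditions was therefore detectable for the isotypes with these numbers of embryos.

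The remaining genotype differences did not pass the threshold, and their groups overlapped. *Tubb6* lay between 0.03 and 0.17 in the 4 conditions with SE of 0.185 to 0.311, and *Tubb5* between -0.32 and 0.21 with SE of 0.128 to 0.215. At E11.5 the other 7 isotypes besides *Tubb4a* lay between -0.14 (*Tubb3*, SE 0.191) and 0.24 (*Tubb2b*, SE 0.226). At E14.5 *Tubb4b* was at 0.26 (SE 0.163, adjusted p = 0.641) and *Tuba1b* at -0.05 (SE 0.154). At 12 hours *Tubb3* was at -0.24 (SE 0.148, adjusted p = 0.913), and *Tuba1a*, *Tubb2a* and *Tubb2b* lay between 0.03 and 0.10 with SE of 0.21 to 0.284. At 24 hours *Tubb2b* was at -0.31 (SE 0.177, adjusted p = 0.577), *Tuba1a* at -0.25 (SE 0.171, adjusted p = 0.652), *Tuba1b* at -0.22 (SE 0.133, adjusted p = 0.595) and *Tubb2a* at -0.24 (SE 0.196, adjusted p = 0.725), with *Tuba1c*, *Tubb3* and *Tubb4b* between -0.20 and -0.12. In the 12 cortices together the differences ran from -0.39 (*Tubb4a*, SE 0.145, adjusted p = 0.452) and -0.27 (*Tubb2a*, SE 0.105, adjusted p = 0.483) to the 0.37 of *Tuba1c*.

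The median genotype difference over the 10 isotypes was 0.08 and -0.28 in the younger and older cortices and 0.04 and -0.21 in the 12-hour and 24-hour cultures, beside 0.02, 0.01, -0.02 and -0.01 over all genes. The number of isotypes with a lower mean log2 level in mutants was 4, 7, 3 and 9 of 10 in that order, where 47.1%, 48.3%, 52.2% and 51.7% of all genes were lower.

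Other genes of the tubulin pathway were taken from lists of their known roles. Of 10 other tubulin genes, *Tuba3a*, *Tuba3b*, *Tuba8*, *Tubal3* and *Tubb1* were below a mean of 10 normalized reads and were not tested. Of the 5 tested, 1 rose and 2 fell with age, beside 23.8% and 29.3% of all genes. *Tubg2*, a γ-tubulin of the brain, rose from a mean of 26 at E11.5 to 93.2 at E14.5, by 1.82 (SE 0.185, adjusted p = 6.27e-07), whereas *Tubg1*, the γ-tubulin that nucleates microtubules at the centrosome, fell by 0.34 (SE 0.0777, adjusted p = 0.00178). *Tube1*, the ε-tubulin of centriole triplets, fell by 0.83 (SE 0.19, adjusted p = 0.00165). In culture *Tubg1* fell by 0.57 (SE 0.104, adjusted p = 0.000735), alone among the 5, beside 14.1% of all genes called higher and 16.1% lower.

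Newly made tubulin is folded by prefoldin, the chaperonin CCT and the tubulin cofactors. The list of 22 genes held these and also *Arl2* and *Ttc5*. Of the 22, 1 rose and 8 fell between E11.5 and E14.5, with a list median of -0.09 beside -0.08 over all genes. The 8 of 22 that fell were near the 29.3% of all genes called lower, and 23.8% were called higher. The cofactor *Tbcb* rose by 0.35 (SE 0.0738, adjusted p = 0.000856), and the falls with the smallest p were of CCT subunits, *Cct8* by 0.53 (SE 0.0795, adjusted p = 4.02e-05), *Cct3* by 0.51 (SE 0.0907, adjusted p = 0.000197) and *Cct6a* by 0.47 (SE 0.0933, adjusted p = 0.000506). In culture 3 rose and 3 fell, near the 14.1% and 16.1% over all genes. *Tcp1* rose by 0.39 (SE 0.102, adjusted p = 0.00848), *Cct5* by 0.44 (SE 0.116, adjusted p = 0.00945) and the cofactor *Tbce* by 0.57 (SE 0.168, adjusted p = 0.0177). The prefoldin subunit *Pfdn5* fell by 0.41 (SE 0.0969, adjusted p = 0.00462), as did *Tbcb* by 0.30 (SE 0.1, adjusted p = 0.032) and *Tbcd* by 0.73 (SE 0.246, adjusted p = 0.0337).

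Of the enzymes that modify the tails and the polymer, 15 of the 20 listed were tested, and 7 rose and 4 fell with age, where 23.8% of all genes were called higher and 29.3% lower. The list median was 0.53, beside -0.08 over all genes. *Atat1*, the α-tubulin acetylase, rose by 1.18 (SE 0.117, adjusted p = 4.44e-07), the deglutamylase *Agtpbp1* by 1.08 (SE 0.0993, adjusted p = 2.06e-07) and the glutamylase *Ttll7* by 0.95 (SE 0.124, adjusted p = 8.99e-06). *Ttll4*, another glutamylase, fell by 1.06 (SE 0.136, adjusted p = 7.01e-06), *Ttll12* by 0.37 (SE 0.0886, adjusted p = 0.00236) and the deacetylase *Hdac6* by 0.37 (SE 0.137, adjusted p = 0.0309). In culture 2 rose and 1 fell of 16 tested, beside 14.1% and 16.1% of all genes. *Ttll1* rose by 1.07 (SE 0.176, adjusted p = 0.000323) and *Ttll5* by 0.80 (SE 0.172, adjusted p = 0.00246), while *Svbp*, partner of the tyrosine carboxypeptidases, fell by 0.99 (SE 0.314, adjusted p = 0.0263). In limma 0 genes of these 3 lists passed the threshold in any genotype comparison or between culture times.

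Likeness was measured as Pearson's r of the mean log2 level over the 8 groups of genotype and condition, which share embryos and describe mostly age and culture. *Tuba1a* and *Tubb2a* were most like each other among the isotypes (r = 0.99), as were *Tuba1b* and *Tuba1c* (r = 0.954). Outside the isotypes, the genes most like *Tuba1a* were *Acat1* (r = 0.995) and *Nol4* (r = 0.994), those most like *Tubb2a* *Trim67* (r = 0.997) and *Acat1* (r = 0.997), and those most like *Tubb3* *Gnal* (r = 0.998) and *Socs2* (r = 0.996). *Tuba1b* was most like *Dera* and *Cenpl* (r = 0.997 and 0.996), and *Tuba1c* like *Zranb3* and *Ubr7* (r = 0.986 for both). *Tubb2b* was most like *Ackr1* and *Lrrc55* (r = 0.992 and 0.987), *Tubb4a* like *Ocel1* and *Ago4* (r = 0.995 and 0.992) and *Tubb4b* like *Ldha* and *Cep57l1* (r = 0.985 and 0.983). The isotypes least like any other isotype were *Tubb5* (r = 0.63 with *Tuba1b*) and *Tubb6* (r = 0.148 with *Tubb4b*), whose nearest other genes were *Bivm* and *2310022B05Rik* (r = 0.961 and 0.957) and *Eif4ebp1* and *Hist1h3d* (r = 0.99 and 0.987).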

How the data were processed

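Total RNA was made into QuantSeq 3′ libraries. Per the submitters' processing notes, reads were checked with FastQC 0.11.7, aligned to GRCm38 with TopHat 2.0.10 (SAMtools 0.1.19, Bowtie 1.0.0), and counted by strand with HTSeq 0.6.1. The authors deposited 1 signal table of read counts divided by a size factor per library, without pooling. All 484666 values above 0 (100%, within 0.001 reads) came to whole reads once divided by what 1 read was worth in their library. Depth was 4732781 to 11645213 reads.

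From these values log2 of the count plus 1 was fitted with limma 3.58.1 (R 4.3.3, intensity trend, two-sided) on genes averaging 10 or more, with Benjamini-Hochberg adjustment over all genes tested and a threshold of 0.05. The age, culture and culture-time fits had genotype as a term. The main fits had no term for embryo, so those of culture and culture time did not use the pairing. Scripts were tested on simulated data. The isotypes and lists were chosen with earlier results of these data known. The 10 isotypes are given singly or by their range in every comparison. From the 3 other lists, genes past the threshold for genotype are named, and up to 3 higher and 3 lower with the smallest p for age and culture. Alternatives changed the pseudocount, filter, scaling, tool (edgeR 4.0.16, DESeq2 1.42.0), libraries and block. Deviations of libraries from the same embryo correlated at -0.114 to 0.235 (18 pairs, median 0.137, 12 pairs above 0.1), and embryo numbers in the labels gave the pairing. Since E11.5 littermates are not identified, p-values of the genotype and age fits measure the spread between these embryos. The fits of culture, culture time and their interactions with genotype treated libraries of the same embryo as independent. Their p-values therefore do not measure the spread between embryos. Positions and transcripts came from GENCODE vM21, and the authors counted on vM20. Promoters came from RefSeq. Coding ends of the α genes are not reported here.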

Additional observations from a re-analysis of the deposited data

Results flagged for a closer look

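The change of *Tuba1b* from 12 to 24 hours of culture was singled out because all 3 mutant embryos went down and all 3 control embryos went up. Every isotype was searched for such opposed changes, from cortex to 12 hours as well, and the share of all genes with them was not counted. Control 5 rose by 0.706 on the log2 scale, and controls 3 and 4 by 0.18 and 0.127. At 12 hours control 5 had the lowest value of the 6 cultures, 4505. The mean changes differed by -0.626 on the log2 scale, and the interaction term had an adjusted p = 1 in limma.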

How the results depend on the processing

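Counts of isotypes past the threshold stayed within 1.5 times of those reported in 218 of 219 alternative fits, and 0 reversed. The exception was genotype in E14.5 cortices, where leaving out 1 library gave 0 to 1 isotypes, the 1 being *Tuba1c* without control 5. The age count was 9 in all 21 alternatives. The culture count of 5 ranged from 4 to 7, with 4 under the replicate block that paired libraries by embryo and 7 under quantile scaling, and *Tubb5* was the call lost under the block and *Tubb4b* one of those gained under quantile scaling (adjusted p = 0.00887). The paired fit gave 0 isotypes between culture times and for both interactions in culture. Adjusted p of *Tubb4a* in 24-hour cultures ranged from 0.0797 to 0.238 over settings and from 0.0983 to 0.674 when 1 library was left out. DESeq2 called more genes for genotype than limma, 34 against 2 at E11.5, 64 against 10 at E14.5, 9 against 0 at 12 hours, 182 against 36 at 24 hours and 98 against 19 in the 12 cortices, 160 against 39 between culture times, and 17, 5 and 0 against 0 for the interactions, with 0 isotypes in each, and edgeR called 1, 9, 0, 40 and 18 for genotype. The culture median of all genes was -0.129 with equal totals outside *Gm42418* and mitochondrial genes, against -0.063. Shared 3′ sequence limits the α genes, and 3 embryos a group limit the genotype comparisons.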
